A study of Mus musculus with 62 samples.

Results

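Wasting muscles of 1 group of mice do not all look alike, and the 12 tibialis anterior muscles taken late in cachexia are described here by how far they lay from each other. They came from mice 6 weeks (5 muscles) and 8 weeks (7 muscles) after injection of melanoma cells that the labels call cachectic, abbreviated CAC. They are 12 of the 62 RNA sequencing libraries of a time course with 12 groups. The spread among these 12 was set beside that among 10 muscles of mice given melanoma cells called non-cachectic (NCAC) and beside that among 10 muscles of mock injected mice (Con). NCAC and Con had 5 muscles each at 6 weeks and 5 at 8 weeks, and 10 CAC muscles of 2 and 4 weeks served as a further set. The tibialis anterior is a mainly fast-twitch muscle at the front of the lower hind leg. All mice were female with a stated age of 2 months, which the study's design text gives as the age at injection. The sample labels name the strain C57BL6/J, whereas the design text names NCI Ath/nude mice, and athymic nude mice lack a thymus and most mature T cells but keep B cells, natural killer cells and macrophages. Which strain was used was not settled here. The labels name neither the melanoma lines nor where they were injected, and they give no body or muscle weight, so no muscle can be ranked by the wasting of its animal.

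Muscle wasting is driven largely by faster breakdown of protein. Trim63 (MuRF1) and Fbxo32 (atrogin-1) are ubiquitin ligases that mark muscle proteins for the proteasome, and FOXO transcription factors switch on both genes together with genes of autophagy, the delivery of cell contents to lysosomes. Inflammatory cytokines acting through STAT3, glucocorticoids and low insulin signalling are known to feed into that programme. In a muscle sampled at 1 time point, the level of Trim63 is commonly read as a mark of how active the programme is.

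Values are in TPM, a unit corrected for transcript length in which each library adds up to the same sum, so that a fall of abundant transcripts raises all others. The 11107 genes averaging 1 TPM or more across the 62 libraries entered the tests, out of 23019 with any value. TPM does not carry the number of reads, so counting error is unknown here. Fibre genes dominated every late CAC muscle: the summed level of a fibre marker list was 73710 to 133000 TPM in late CAC and 73760 to 125500 TPM in late Con. The share of mitochondrially encoded transcripts was lower, at 33.5 to 41.5% in late CAC against 39.9 to 58.9% in late Con. Size factors, which measure how far the typical gene of a library lies above the average library, were higher in late CAC than in late Con on the log2 scale, at 0.22 to 0.56 against -0.38 to 0.12. Several results are given also after rescaling by these factors. No pair of libraries was a duplicate, the closest pair differing by a root mean square of 0.261 on the log2 scale. According to the protocol they are biological replicates; neither animal numbers nor a sequencing batch stand in the labels.

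The first question was whether late CAC muscles differed from each other more than Con muscles did. For each library the deviation of every gene from the mean of its own treatment and week was taken on the log2(TPM + 1) scale, and the root mean square over genes gave 1 deviation per library. At 6 weeks the deviations of the CAC muscles were 0.455, 0.256, 0.292, 0.239 and 0.262, in the order of their replicate numbers. At 8 weeks those of the CAC muscles were 0.558, 0.245, 0.504, 0.327, 0.332, 0.494 and 0.333. The Con muscles had deviations of 0.279, 0.208, 0.219, 0.236 and 0.217 at 6 weeks and of 0.199, 0.327, 0.217, 0.220 and 0.350 at 8 weeks. Of the CAC muscles, 4 lay above all Con muscles, namely replicate 1 at 6 weeks and replicates 1, 3 and 6 at 8 weeks, and the other 8 lay within the Con range. The mean deviation was 0.358 ± 0.114 in late CAC (SD, n = 12) and 0.247 ± 0.0532 in late Con (SD, n = 10), a difference of 0.111 (two-sided permutation test over libraries with 100000 resamples, p = 0.00708). Within weeks the means were 0.301 in CAC and 0.232 in Con at 6 weeks (exact permutation p = 0.0635, where 0.00794 is the smallest p possible) and 0.399 in CAC and 0.263 in Con at 8 weeks (exact permutation p = 0.0328, where 0.00253 is the smallest). The difference rests on few animals: without replicate 1 at 6 weeks and replicates 1 and 6 at 8 weeks, which score highest on the first principal component, at its high-Trim63 end, the mean was 0.279 in late CAC against 0.247 in late Con (exact permutation p = 0.221). Without replicates 1, 3 and 6 at 8 weeks, the 3 with the scores largest in size, at either end of that component, the mean was 0.290 in late CAC against 0.247 in late Con (exact permutation p = 0.135).

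**Figure D1:**
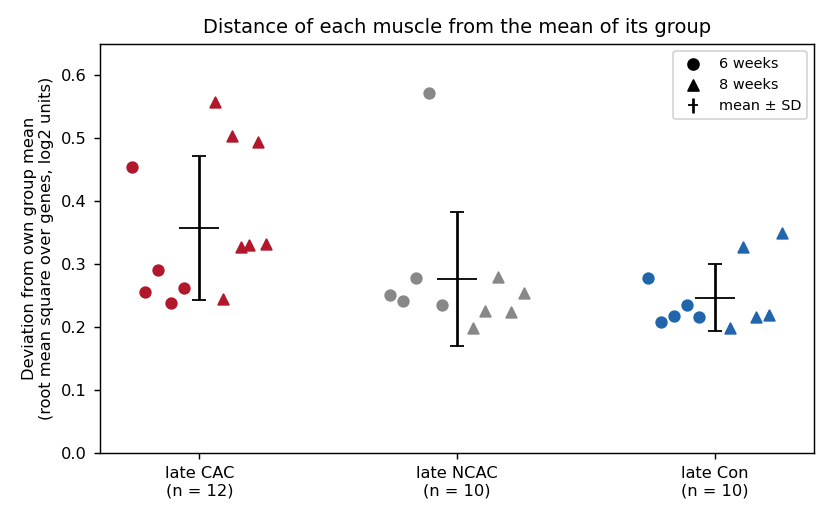
Deviation of each late library from the mean of its treatment and week, in log2 units over 11107 genes, for CAC, NCAC and Con; circles are libraries, and the bars give the mean and SD. Among the CAC muscles 4 lie above every Con muscle, and 1 NCAC muscle lies above all other muscles, at 0.572.

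The plot of deviations by library also shows the NCAC muscles, whose mice had received melanoma cells as well. Their deviations averaged 0.276 ± 0.107 (SD, n = 10) against 0.247 ± 0.0532 in late Con (SD, n = 10), a difference of 0.0293 (permutation p = 0.57). One NCAC muscle, replicate 4 at 6 weeks, had 0.572, more than any CAC muscle. Without it the mean in late NCAC was 0.227, which is below the 0.247 of late Con (exact permutation p = 0.336). Late CAC against late NCAC differed by 0.0815 with that muscle (permutation p = 0.091) and by 0.131 without it (exact permutation p = 0.0004), so 1 library decides whether CAC stood apart from NCAC in this measure.

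Gene by gene, variance within groups was higher in late CAC than in late Con for 72.3% of the 11107 genes, with a median ratio of 1.77, and the corresponding median ratio of late NCAC over late Con was 1.57. A test of spread, limma applied to each library's absolute deviation from its group mean, called 4.99% of the genes at an adjusted p under 0.05. These were 554 genes, 533 more spread in late CAC (4.80%) and 21 less spread (0.189%). The same test called 5 genes (0.0450%) between late NCAC and late Con. The call for late CAC depends on single muscles. It fell to 2 genes without CAC replicate 1 at 6 weeks, to 2 without CAC replicate 1 at 8 weeks and to 0 without CAC replicate 6 at 8 weeks (1973 genes at an unadjusted p under 0.05), and it was 30 without all 3. When deviations were taken from group medians instead of means, limma called 0 genes, with 833 at an unadjusted p under 0.05, and an F test of the variances called 717. Leaving out Con muscles also moved the count, to 694 without Con replicate 2 and 745 without replicate 5 at 8 weeks, to 90 without Con replicate 4 at 8 weeks, 129 without replicate 3 and 136 without replicate 1 of that week, and to 324, 190, 171, 159 and 167 without Con replicates 1 to 5 at 6 weeks. Leaving out other CAC muscles raised it, up to 1328 without CAC replicate 2 at 8 weeks.

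Trim63 itself (chr4:134315120-134329629, plus strand, GRCm38) showed how wide the late CAC muscles ran. At 6 weeks the CAC muscles had 1820, 1285, 226, 272 and 411 TPM. At 8 weeks the CAC muscles had 4657, 977, 97.0, 151, 320, 2919 and 446 TPM. The Con muscles had 188, 148, 110, 198 and 118 TPM at 6 weeks and 100.7, 140, 112, 155 and 91.1 TPM at 8 weeks. Of the 12 CAC muscles, 10 lay above every Con muscle, and replicates 3 and 4 at 8 weeks lay inside the Con range. The highest CAC muscle thus had 48.0 times the Trim63 of the lowest, against 2.17 times among late Con muscles, 2.48 times among late NCAC muscles and 9.13 times among CAC muscles of 2 and 4 weeks. The within-week variance was 27.3-fold that of late Con, with SDs of 1.83 in late CAC and 0.35 in late Con on the log2 scale (limma on absolute deviations, adjusted p = 0.0438).

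Fbxo32 (chr15:58175879-58214932, minus strand, GRCm38), the second classical atrophy ligase, spread in the same way. It had 745, 470, 83.4, 208 and 162 TPM in CAC muscles at 6 weeks and 1436, 517, 29.2, 77.1, 121, 876 and 187 TPM in CAC muscles at 8 weeks, against 54.9 to 126 TPM in late Con muscles. Of the CAC muscles 8 were above all Con muscles, 3 were inside their range and 1, replicate 3 at 8 weeks, was below it. The variance ratio of late CAC over late Con was 21.4 (limma on absolute deviations, adjusted p = 0.0469).

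The genes with the largest variance ratios were led by Lcn2, which encodes lipocalin 2, an iron-binding acute phase protein, with a ratio of 366. Lcn2 was at 188, 35.4, 23.6, 28.7 and 12.4 TPM in CAC muscles at 6 weeks and at 103, 41.5, 0.999, 101.2, 30.7, 130 and 48.1 TPM at 8 weeks, against 0.145 to 0.381 TPM in late Con muscles. All 12 CAC muscles were thus above the Con range, while replicate 3 at 8 weeks was far below the other CAC muscles. Ranbp9, which encodes a scaffold of the CTLH ubiquitin ligase complex, had a variance ratio of 185 (adjusted p = 0.0142). It was at 131, 37.8, 31.9, 30.8 and 27.0 TPM in CAC muscles at 6 weeks and at 304, 42.0, 30.4, 32.2, 31.9, 224 and 29.5 TPM at 8 weeks, against 18.5 to 23.8 TPM in late Con muscles. Ranbp9 therefore separated 3 CAC muscles, replicate 1 at 6 weeks and replicates 1 and 6 at 8 weeks, from the other 9, which stayed between 27.0 and 42.0 TPM.

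The other genes named from that ranking were high in the same 3 muscles or low in them. Slc39a14, a zinc and iron importer known to be induced in wasting muscle, had a variance ratio of 179 and ran over 3.76 to 122 TPM in late CAC against 1.86 to 2.71 TPM in late Con. Rrs1, a factor of ribosome assembly, had a ratio of 102, and Lrrc58 one of 97.8. Fbxo30 (MUSA1), a ligase that FOXO induces in denervated muscle, had a ratio of 83.6, with 5.04 to 46.6 TPM in late CAC and 4.68 to 5.94 TPM in late Con. Ddx20, an RNA helicase of the SMN complex, had a ratio of 77.8, and Hmox1, the haem-degrading enzyme of the oxidative stress response, one of 61.4. Hmox1 reached 219 TPM in late CAC, against 2.01 to 4.15 TPM in late Con. Itgb1bp2 (melusin), a muscle chaperone bound to integrin, was the gene among them that was low: it had 11.3 to 133 TPM in late CAC and 115 to 157 TPM in late Con, with 11 of 12 CAC muscles below all Con muscles.

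**Figure D2:**
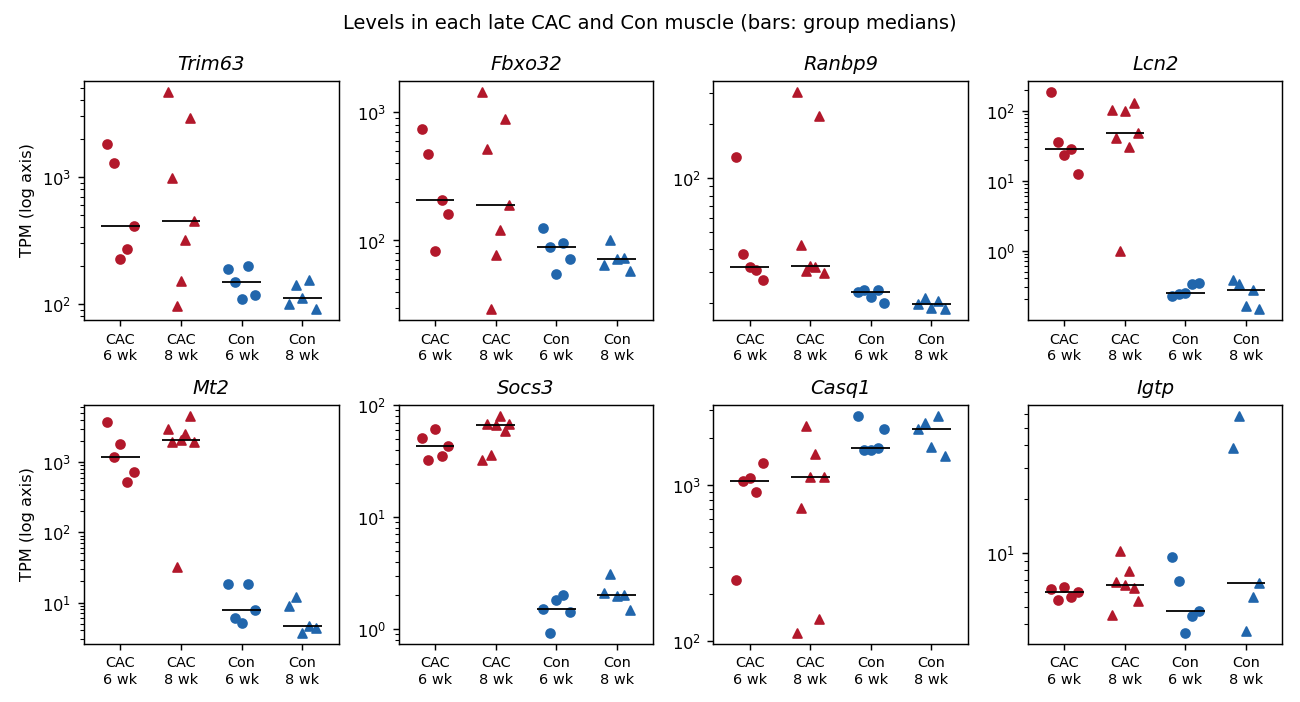
TPM on a log axis in each late CAC muscle (left) and late Con muscle (right) for Trim63, Fbxo32, Ranbp9, Lcn2, Mt2, Socs3, Casq1 and Igtp; circles are libraries and bars are group medians. Trim63 runs from 97.0 to 4657 TPM among CAC muscles, Socs3 from 32.4 to 80.8 TPM, and Igtp is high in 2 Con muscles only.

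By gene list, the members called more spread in late CAC numbered 6 of 26 muscle ubiquitin ligases, 5 of 22 genes of insulin and FOXO signalling, 7 of 29 of interleukin-6 signalling, 7 of 31 proteasome genes, 6 of 21 nucleolar genes, 6 of 21 antioxidant genes, 5 of 30 autophagy genes and 3 of 30 lysosomal genes, against 4.80% of all genes. Of 73 ribosomal proteins limma called 0 more spread, with 16 at an unadjusted p under 0.05, and of 20 genes of calcium handling 0, with 3. Among the ligases, Fbxo31 had a variance ratio of 27.3 (adjusted p = 0.0241) and Cblb, which turns over the insulin receptor substrate, 15.6 (adjusted p = 0.0353). In the insulin list, the transcription factor Foxo1 had 5.41 to 44.6 TPM in late CAC and 3.22 to 7.20 TPM in late Con. Grb14, an inhibitor of the insulin receptor, was low throughout, with 1.54 to 5.71 TPM in late CAC and 8.47 to 11.9 TPM in late Con. Of the other lists, Psmd7 of the proteasome lid, the mitophagy receptor Bnip3, the autophagosome protein Map1lc3b, the cholesterol exporter Npc1 of lysosomes, the glutathione synthesis subunit Gclm, its regulator Nfe2l2 and the nucleolar protein Gnl3 were called more spread, with ratios of 20.4, 27.9, 13.9, 28.6, 37.3, 18.4 and 21.97. Of 37 named genes called for their spread, Trim63, Fbxo32, Ranbp9 and Lcn2 among them, limma called 0 without CAC replicate 1 at 6 weeks, 0 without CAC replicate 1 at 8 weeks and 0 without CAC replicate 6 at 8 weeks. The direction held in all 37, which were taken because they were called in the same muscles.

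Other genes were high in every late CAC muscle and ran over a narrow range. Socs3, the feedback inhibitor that STAT3 induces, had 32.4 to 80.8 TPM in late CAC against 0.923 to 3.10 TPM in late Con. Stat3 had 31.3 to 74.4 TPM in late CAC against 7.33 to 14.2 TPM in late Con, with a variance ratio of 3.17 (limma on absolute deviations, adjusted p = 0.179). For both genes the 12 CAC muscles lay wholly above the 10 Con muscles, also where Trim63 was at the Con level.

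Of the 21 genes called less spread in late CAC, 9 are named here. The list of interferon-stimulated genes had 0 of 18 tested members called less spread by limma. Igtp, an interferon-induced GTPase, was at 4.49 to 10.2 TPM in late CAC, whereas Con replicates 1 and 2 at 8 weeks had 38.5 and 58.8 TPM and the other 8 Con muscles 3.56 to 9.43 TPM. Its variance in late CAC was 0.0461 of that in late Con (adjusted p = 0.0118). B2m, the light chain of major histocompatibility class I, was at 315.6 and 356.6 TPM in the same 2 Con muscles. The GTPases Iigp1 and Irgm2 and the class I gene H2-T23 were also highest in these 2 Con muscles, so that the wider spread of Con lay in them. For the class I gene H2-Q6, for Lrp10, for Scamp2 and for Pcx, which encodes pyruvate carboxylase, the range of Con muscles was not set by these 2 alone. The summed lymphocyte markers of those 2 Con muscles were 2.73 and 4.03 TPM against 0.439 to 0.786 TPM in the other Con muscles, and the part of such cells in this result was not tested. In bulk RNA, fewer cells of a type and less RNA per cell cannot be told apart, here and for every marker sum given.

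The second question was which genes varied together with Trim63 among the 12 late CAC muscles. Week means were removed, and each gene was regressed on Trim63 with limma. Of 11106 genes, 5022 were called (45.2%), 3618 with a positive slope, meaning higher where Trim63 was higher (32.6%), and 1404 with a negative slope (12.6%). With so large a share of all genes called, a call by itself says little about a gene, so r stands beside most genes named. Its value in fewer muscles is printed for part of them. For 73 called genes the lowest size of r without the 2 muscles farthest from the Trim63 median is given below. The median Pearson r over all genes was 0.325 as deposited and -0.106 after rescaling, 863 genes had r above 0.9 and 200 had r below -0.9. Rescaling gave 2522 positive and 2693 negative calls, and among the genes called as deposited it turned the direction of 0 calls. One axis held most of this: the first principal component of the 12 muscles took 55.2% of the variance and had r = 0.944 with Trim63 (53.8% and 0.945 after rescaling). The first component took 49.8% of the variance in late NCAC (25.4% after rescaling) and 36.5% in late Con (23.2% after rescaling). Without the 2 muscles farthest from the Trim63 median 845 genes were called, 701 positive and 144 negative, and without the 3 muscles that score highest on the first component 270 were called, 230 and 40. Without the 3 scores largest in size 379 were called, 336 and 43. With the replicate number as a block limma called 6 genes, and of the 73 called genes whose slopes were followed through the alternatives it called 0. The block adds a term for each replicate number and leaves few residual degrees of freedom. Replicates 6 and 7 occur at 8 weeks only, so with the block these muscles add nothing to a slope. Whether this lowered the count was not tested. Same-numbered CAC muscles of 6 and 8 weeks had deviations correlated at r = 0.185 to 0.684, and the labels tie no number to an animal, litter or day. Pairs with different numbers were not compared, so this range alone does not show that numbers group muscles. Trim63, however, had the same order among replicates 1 to 5 in both weeks, falling from 1 to 2, 5, 4 and 3. In these muscles slopes on Trim63 therefore cannot be fully told apart from differences between replicate numbers. What the numbers stand for was not tested. The highest value is that of replicate 1, which scored 0.393 at 6 weeks and 0.532 at 8 weeks on the first component. Within weeks limma called 0 genes among the 5 muscles of 6 weeks, with 1769 at an unadjusted p under 0.05, and 4121 among the 7 of 8 weeks.

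Of the 533 genes called more spread, 481 (90.2%) were also called in the fit on Trim63, where 45.2% of all 11106 genes were called. The test of spread and the slope use the same 12 muscles, and this share is a description. How far a library lay from its group was not simply how high its Trim63 was: over the 12 muscles the deviation had r = 0.428 with Trim63 (rho = 0.357, permutation p = 0.215 and 0.306, -0.119 without the 2 muscles farthest from the Trim63 median). CAC replicate 3 at 8 weeks, with a deviation of 0.504, had the lowest Trim63 of all 12.

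Fbxo32 followed Trim63 closely, with a slope of 0.93 log2 units per log2 unit of Trim63 (SE 0.06, limma adjusted p = 3.57e-06, r = 0.977, rho = 0.944, permutation p = 1e-05 for r and 9e-05 for rho). Its r was 0.96 without the 2 muscles farthest from the Trim63 median and 0.951 without the 3 muscles highest on the first component. In late Con and late NCAC muscles, over a narrower range of Trim63, r of Fbxo32 was 0.832 and 0.92 (limma adjusted p = 0.212 and 0.175). The gene with the highest r was Zfyve1 (DFCP1), a marker of the membranes on which autophagosomes form. Zfyve1 had 55.2, 50.03, 16.6, 24.01 and 25.5 TPM in CAC muscles at 6 weeks and 111, 51.1, 13.1, 17.5, 22.6, 96.1 and 32.6 TPM at 8 weeks, against 8.03 to 14.1 TPM in late Con muscles. Its order over the CAC muscles was almost that of Trim63, with a slope of 0.55 (SE 0.02, limma adjusted p = 1.72e-07), r = 0.993 and rho = 0.993 (permutation p = 1e-05 for both, the smallest that 100000 resamples give) and r = 0.985 without the 2 farthest. The slopes of the 11106 genes are 1 family, and the adjusted p is over all of them. For the same 73 genes, rho had the sign of r in each and lay between 0.566 (Serpina3n) and 1 in size. Their permutation p was at most 0.0215 for r (Mt2) and at most 0.0584 for rho (Serpina3n). Without the 2 muscles the size of their r was at least 0.549 (Grb14). The 73 genes were taken because they were called in the same muscles, so these values describe them and add no support to the calls. No permutation p given here is adjusted for the 11106 genes.

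Next in r came Pnpla7, a lysophospholipase, at 0.987, Zcchc24 at 0.986, the translation factor Eif4b at 0.984, Sertad2 at 0.984, Fam63a at 0.983, the ubiquitin chain elongation factor Ube4a at 0.982, Paip2b, a repressor of translation that binds poly(A)-binding protein, at 0.982, the autophagy receptor Calcoco1 at 0.982 and the retinoblastoma relative Rbl2 at 0.982. Pnpla7 ran over 7.52 to 79.7 TPM in late CAC against 7.93 to 15.7 TPM in late Con. Calcoco1 ranked the muscles exactly as Trim63 did once week means were removed (rho = 1), over 54.6 to 139 TPM in late CAC against 39.3 to 60.6 TPM in late Con. Each gene of this group kept an r above 0.9 without the 2 muscles farthest from the Trim63 median.

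At the other end the lowest r was that of Calm2, 1 of the genes for calmodulin, the calcium sensor, at -0.968. Calm2 had 66.3 to 301 TPM in late CAC and 131 to 188 TPM in late Con, so that CAC muscles reached past Con muscles on both sides. Its slope was -0.36 (limma adjusted p = 9.78e-06). After it came Gsta4, a glutathione transferase that clears lipid peroxidation products, at -0.967, Cyb5b of the outer mitochondrial membrane at -0.966, Fam78a at -0.965, Nkain1 at -0.964, Rtn4ip1, a mitochondrial oxidoreductase, at -0.964, the DNA repair protein Xrcc5 at -0.96, G0s2, an inhibitor of fat breakdown by adipose triglyceride lipase, at -0.959, the synaptic acetylcholinesterase Ache at -0.958 and Rgma at -0.955. Gsta4 had 4.82 to 30.9 TPM in late CAC against 19.3 to 30.2 TPM in late Con, and Ache 2.61 to 22 TPM in late CAC against 7.21 to 18.3 TPM in late Con.

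**Figure D3:**
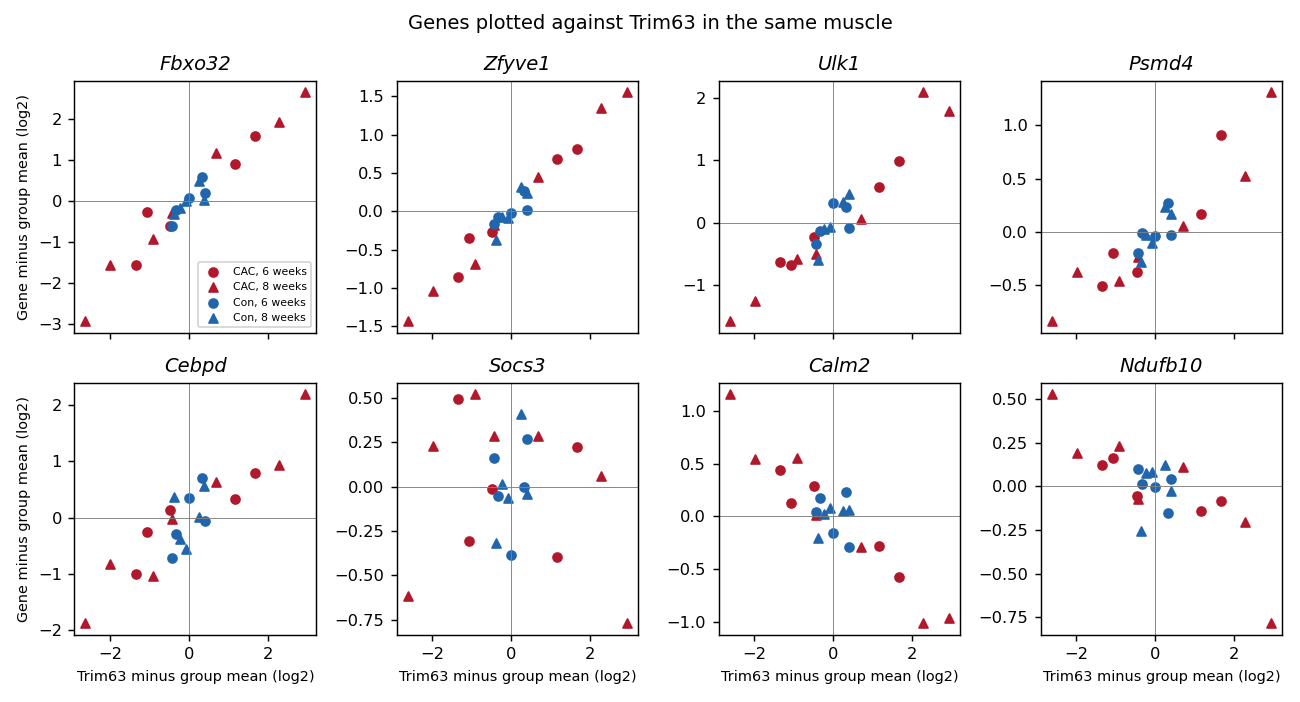
Level of 8 genes against Trim63, both as log2(TPM + 1) minus the mean of the library's treatment and week, with CAC muscles in red and Con muscles in blue. Fbxo32, Zfyve1, Ulk1, Psmd4 and Cebpd climb with Trim63 across the CAC muscles, Calm2 and Ndufb10 descend, Socs3 does neither, and the Con muscles crowd near the centre.

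Because FOXO factors act on the Trim63 gene directly, promoters were searched for GTAAACA, a form of the site that FOXO and other forkhead factors bind, on both strands in windows of 300 bases from RefSeq (GRCm38.p6), 250 before and 50 after the start of the gene. The windows of Trim63, of Pnpla7 and Klf9, which were higher with Trim63, and of Col6a1, which was lower with it, are shown because each holds the motif once. Each is written 5′ to 3′ on the strand of its gene, with the motif in capitals. They lie at chr4:134314870-134315169 on the plus strand, at chr2:24975783-24976082 on the plus strand, at chr19:23140976-23141275 on the plus strand and at chr10:76725995-76726294 on the minus strand.
Trim63: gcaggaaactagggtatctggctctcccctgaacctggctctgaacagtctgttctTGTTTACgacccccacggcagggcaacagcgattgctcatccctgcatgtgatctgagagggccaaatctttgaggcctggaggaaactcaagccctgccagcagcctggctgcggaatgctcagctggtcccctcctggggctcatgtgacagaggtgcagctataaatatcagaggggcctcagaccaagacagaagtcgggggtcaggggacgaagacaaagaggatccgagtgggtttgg
Pnpla7: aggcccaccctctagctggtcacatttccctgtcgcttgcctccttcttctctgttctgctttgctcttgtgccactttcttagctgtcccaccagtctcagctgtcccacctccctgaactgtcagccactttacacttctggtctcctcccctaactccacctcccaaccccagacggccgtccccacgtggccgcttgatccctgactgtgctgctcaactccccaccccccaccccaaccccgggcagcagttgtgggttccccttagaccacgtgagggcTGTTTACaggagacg
Klf9: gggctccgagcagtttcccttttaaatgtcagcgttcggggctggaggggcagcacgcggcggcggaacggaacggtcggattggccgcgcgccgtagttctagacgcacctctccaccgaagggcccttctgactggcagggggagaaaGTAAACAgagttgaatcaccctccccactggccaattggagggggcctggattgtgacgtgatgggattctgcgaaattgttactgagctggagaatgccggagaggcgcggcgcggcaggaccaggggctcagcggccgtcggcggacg
Col6a1: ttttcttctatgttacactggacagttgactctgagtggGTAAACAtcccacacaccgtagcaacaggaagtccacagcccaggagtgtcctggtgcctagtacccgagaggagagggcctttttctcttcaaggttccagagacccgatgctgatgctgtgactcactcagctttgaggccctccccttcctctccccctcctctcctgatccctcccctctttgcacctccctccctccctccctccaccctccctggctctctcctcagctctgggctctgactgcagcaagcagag
The first base of the motif stood at -194 in Trim63, at +36 in Pnpla7, at -100 in Klf9 and at -211 in Col6a1 relative to the gene's start. The motif was in 3.65% of all 32851 windows, in 2.48% of those of the tested genes, in 3.02% of those of genes higher with Trim63, in 1.75% of those of genes lower with it and in 3.42% of those of genes more spread in late CAC. Its presence does not show that a factor binds there. Of 284 genes looked up, 220 had a window.

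Proteasome genes varied with Trim63 almost as 1 block. Of 31 tested, 27 had a positive call and 0 a negative one, as deposited and after rescaling, with a median r of 0.872, and 2 were called without the 3 muscles highest on the first component. Of all 11106 genes 32.6% had a positive and 12.6% a negative call as deposited. After rescaling 2522 were positive and 2693 negative, and without those 3 muscles 230 and 40. The list counts that follow are to be read beside these. Psmd4, a ubiquitin receptor of the proteasome, had 76.2 to 341 TPM in late CAC and 49.1 to 79.0 TPM in late Con, with a slope of 0.34 (r = 0.935). Psmd7 had 148 to 384 TPM in late CAC and 122 to 156 TPM in late Con (r = 0.952). Of 25 ubiquitin ligases of muscle 13 had a positive and 3 a negative call (4 and 0 without the 3 muscles). Fbxo31 and Fbxo30 had r of 0.924 and 0.91. Zfand5, a factor that stimulates the proteasome and is induced in atrophy, had r = 0.967, with 60.1 to 366 TPM in late CAC and 53.1 to 85.6 TPM in late Con.

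Autophagy genes gave 20 positive calls and 1 negative call of 30, against 32.6% and 12.6% of all genes, with a median r of 0.815. Without the 3 muscles 7 positive calls held the threshold, more than for any other list of the report. Ulk1, the kinase that starts autophagy, had 106, 78.9, 33.8, 32.5 and 44.8 TPM in CAC muscles at 6 weeks and 191, 56.8, 17.5, 22.3, 36.0, 235 and 38.1 TPM at 8 weeks, against 15.0 to 34.5 TPM in late Con muscles. Of its CAC values, the highest was in the muscle with the second highest Trim63. Its slope was 0.64, with r = 0.975 and rho = 0.979, and r was 0.992 without the 2 farthest. Sqstm1 (p62), a cargo receptor, had 140 to 1123 TPM in late CAC and 142 to 232 TPM in late Con (r = 0.966). Lysosomal genes gave 22 positive calls and 1 negative call of 30, 14 and 4 after rescaling, led by Ctsl, a cathepsin long known as an atrophy gene, with r = 0.953, and Npc1 with r = 0.938. Atp6v1h, a subunit of the lysosomal proton pump, had 2.93 to 15.3 TPM in late CAC and 1.93 to 2.83 TPM in late Con (r = 0.961), all 12 CAC muscles lying above Con.

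Genes of insulin and FOXO signalling gave 13 positive and 4 negative calls of 22, against 32.6% and 12.6% of all genes. Foxo3 had 8.54 to 42.0 TPM in late CAC and 6.13 to 8.93 TPM in late Con (slope 0.35, r = 0.946), and Foxo1 had r = 0.853. Without the 3 muscles highest on the first component, r was 0.843 for Foxo3, 0.666 for Foxo1 and -0.376 for Grb14. Grb14 went the other way with r = -0.789, though at 1.54 to 5.71 TPM in late CAC it was below late Con in all 12 muscles. Genes that restrain growth gave 7 positive calls and 1 negative call of 14. Eif4ebp1, a repressor of translation, had 46.6 to 1066 TPM in late CAC and 24.9 to 61.8 TPM in late Con (r = 0.908), Ddit4 (REDD1), an inhibitor of mTORC1, 36.9 to 742 TPM in late CAC and 4.10 to 28.5 TPM in late Con (r = 0.942), and Sesn1, another inhibitor of mTORC1, 16.1 to 362 TPM in late CAC and 11.7 to 23.2 TPM in late Con (r = 0.938). Amino acid transporters gave 10 positive and 3 negative calls of 16, with Slc7a6 and Slc43a1 both at r = 0.975. Gadd45a, a stress gene linked to atrophy, had 14.6 to 377 TPM in late CAC and 17.2 to 37.0 TPM in late Con (r = 0.936).

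Genes of ribosome assembly in the nucleolus gave 17 positive calls and 1 negative call of 21, against 32.6% and 12.6% of all genes, with Npm1 at r = 0.964 and Rrs1 at 0.906. Ribosomal proteins gave 33 positive and 0 negative calls of 73 as deposited. After rescaling they gave 15 positive calls, where 2522 of all 11106 genes were positive. Without the 3 muscles they gave 0, where 1 had an unadjusted p under 0.05. The genes of the integrated stress response gave 10 positive calls and 1 negative call of 19, led here by the transcription factor Atf4 with 127 to 573 TPM in late CAC and 133 to 181 TPM in late Con (r = 0.961), and those of p53 gave 10 positive and 2 negative calls of 16. Antioxidant genes gave 14 positive and 2 negative calls of 21, with Nfe2l2 at r = 0.923 and Hmox1 at 0.818 (0.484 without the 3 muscles).

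**Figure D4:**
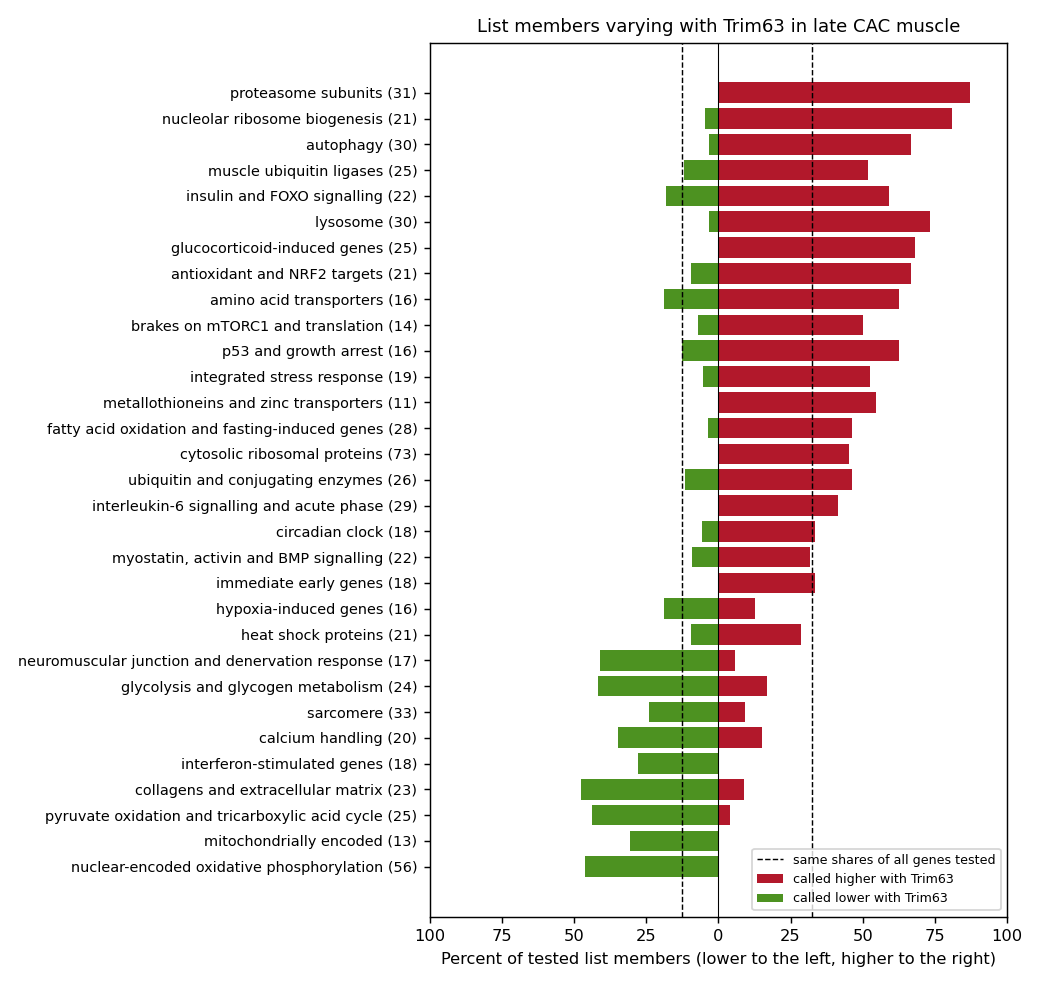
Percent of the tested members of each gene list called higher (right of 0) or lower (left of 0) where Trim63 was higher among the 12 late CAC muscles; dashed lines mark the same percentages over all genes, 32.6% and 12.6%. Proteasome, nucleolar and lysosomal lists reach far past the line on the right, and oxidative phosphorylation on the left.

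Lists for glucocorticoid and interleukin-6 signals, which are known to act upstream of wasting, are given side by side with no test between them. Metallothioneins and zinc genes follow. The lists share members: of 874 genes in all lists, 35 stand in more than 1. Targets of the glucocorticoid receptor gave 17 positive and 0 negative calls of 25, as deposited and after rescaling, and 5 without the 3 muscles. Of all genes 32.6% had a positive call as deposited, and 2522 of 11106 had one after rescaling. Klf15, a glucocorticoid-induced factor, had r = 0.97 with 20.7 to 233 TPM in late CAC and 17.0 to 32.6 TPM in late Con, and Klf9 had r = 0.954. Cebpd, a member of both the glucocorticoid and the interleukin-6 list, had 28.1 to 486 TPM in late CAC and 2.67 to 13.8 TPM in late Con (slope 0.59, r = 0.942). Fkbp5, a chaperone that tempers the glucocorticoid receptor, followed less tightly (slope 0.48, limma adjusted p = 0.00618, r = 0.749), over 8.46 to 185 TPM in late CAC and 3.71 to 15.0 TPM in late Con. Tsc22d3 (GILZ) had r = 0.763 and Per1 r = 0.756.

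Interleukin-6 signalling gave 12 positive and 0 negative calls of 29, against 32.6% positive calls over all genes, and 2 calls without the 3 muscles. Il6ra, the receptor subunit that binds interleukin-6, followed Trim63 closely (r = 0.952), over 0.798 to 56.3 TPM in late CAC and 0.688 to 2.58 TPM in late Con. Il6st (gp130), the subunit that signals, had r = 0.905 and Stat3 r = 0.744. Socs3 did not line up (r = -0.218, limma adjusted p = 0.554), and its slope turned positive without CAC replicate 1 at 8 weeks. Serpina3n, a protease inhibitor of the acute phase, had 11.5 to 677 TPM in late CAC and 1.28 to 3.40 TPM in late Con, with r = 0.728 and 0.39 without the 3 muscles. Metallothioneins and zinc genes gave 6 positive and 0 negative calls of 11, but 4 positive and 2 negative after rescaling, where 2522 and 2693 of all 11106 genes were called. Mt2, a metal-binding protein, ran over 32.3 to 4596 TPM in late CAC and 3.70 to 18.5 TPM in late Con, with r = 0.63 (slope 0.69, limma adjusted p = 0.032). CAC replicate 3 at 8 weeks, the muscle with the least Trim63, was also the lowest CAC muscle in Mt2 and Lcn2, yet above every Con muscle in both.

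Genes of the mitochondrion ran against Trim63. Of 56 genes of oxidative phosphorylation 0 had a positive and 26 a negative call, 47 after rescaling, with a median r of -0.655. Of all 11106 genes 12.6% had a negative call as deposited, and 2693 genes had one after rescaling. Limma called 0 of the 56 without the 2 muscles farthest from the Trim63 median and 0 without the 3 highest on the first component, with 5 and 3 negative at an unadjusted p under 0.05. Ndufb10 of complex I had 149 to 371 TPM in late CAC and 302 to 409 TPM in late Con (slope -0.16, limma adjusted p = 0.00147, r = -0.86). Sdhc of complex II had 96.7 to 219 TPM in late CAC and 181 to 234 TPM in late Con (r = -0.906), and Cyc1 of complex III 269 to 702 TPM in late CAC and 596 to 870 TPM in late Con (r = -0.884). Mitochondrially encoded genes gave 4 negative calls of 13, 8 after rescaling, and 0 positive ones. The share of mitochondrially encoded transcripts in a library had r = -0.844 with Trim63 (rho = -0.916, r = -0.878 without the 2 farthest; Benjamini-Hochberg adjusted permutation p = 0.00418 over 19 relations). Genes of the citrate cycle gave 11 negative calls and 1 positive call of 25, and those of glycolysis 10 negative and 4 positive calls of 24, with Eno3 at r = -0.909 and Pgam2 at -0.882.

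Genes of the contractile apparatus, calcium release and the synapse gave both directions, where 12.6% of all genes had a negative and 32.6% a positive call. After rescaling 2693 of 11106 genes had a negative and 2522 a positive call. Casq1, the calcium-binding protein of the fast-twitch sarcoplasmic reticulum, had 113 to 2381 TPM in late CAC and 1518 to 2773 TPM in late Con (slope -0.71, limma adjusted p = 0.000209, r = -0.89). Calcium handling gave 7 negative and 3 positive calls of 20, 9 and 1 after rescaling, and the sarcomere 8 negative and 3 positive calls of 33, 9 and 0 after rescaling. Jph2, which couples the surface membrane to the calcium store, had r = -0.911, and Ldb3, a protein of the Z-disc, r = -0.84. Mylpf, a light chain of fast myosin, had r = -0.808. Myh4, the fast IIB myosin heavy chain and the main one of this muscle, had no clear slope (0.03, limma adjusted p = 0.663, turning negative after rescaling). Genes of the neuromuscular junction gave 7 negative calls and 1 positive call of 17, among them Ache and Dok7 (r = -0.857), and collagens 11 negative and 2 positive calls of 23, among them Col6a1 (r = -0.918) and Col6a3 (r = -0.928). Without the 3 muscles highest on the first component, limma called 0 genes of calcium handling, with 3 positive and 4 negative at an unadjusted p under 0.05, and 0 of the sarcomere, with 4 positive and 1 negative. In that setting 1 neuromuscular junction gene had a negative call, and collagens had 1 positive and 0 negative calls, with 5 negative at an unadjusted p under 0.05.

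**Figure D5:**
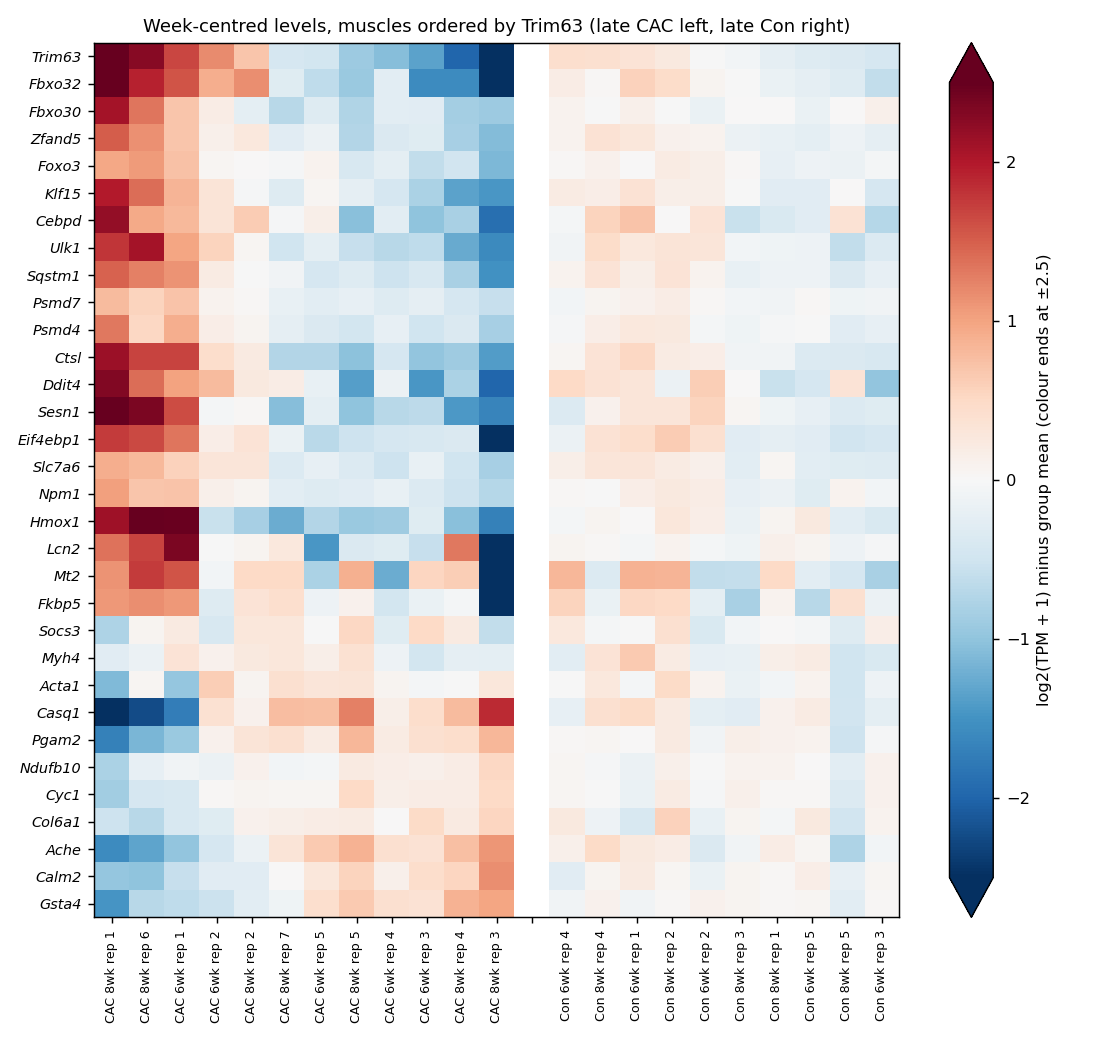
Level of 32 genes in late muscles as log2(TPM + 1) minus the mean of the library's treatment and week. The 12 CAC muscles are on the left and the 10 Con muscles on the right, each in order of falling Trim63 (week means removed). Because each treatment and week is centred on its own mean, the colours show differences among CAC muscles and among Con muscles. They do not show how far a CAC muscle lies from Con.

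Cell-type markers moved with Trim63 in part. The summed adipocyte list, at 985 to 4253 TPM in late CAC and 2713 to 4576 TPM in late Con, was lower where Trim63 was higher (r = -0.858, rho = -0.734, r = -0.702 without the 2 farthest, Benjamini-Hochberg adjusted permutation p = 0.00684 over the same 19 relations). Car3, a carbonic anhydrase of slow fibres and fat cells, made up 19.8 to 82.7% of that sum in late CAC and was the 1 member of 7 with a negative call. Without Car3 the sum was 540.5 to 1423 TPM in late CAC and 374.9 to 504.6 TPM in late Con, and had r = -0.364 (rho = -0.35, r = -0.387 without the 2 farthest, adjusted permutation p = 0.329). Summed smooth muscle and pericyte markers were also lower where Trim63 was higher (r = -0.763, rho = -0.79, adjusted permutation p = 0.0239), over 331 to 449 TPM in late CAC and 164 to 282 TPM in late Con. The size factor of a library had r = 0.741 (rho = 0.58, adjusted permutation p = 0.0239). Melanocyte markers summed to 6.08 to 14.5 TPM in late CAC and 4.92 to 6.49 TPM in late Con, nearly all of it Mitf, and 5 of the 7 markers were below 1 TPM. That sum had r = 0.771 (rho = 0.587, adjusted permutation p = 0.0383) and 0.289 without the 2 farthest. Macrophage markers, at 110 to 306 TPM in late CAC and 37.4 to 106 TPM in late Con, had r = 0.323 (adjusted permutation p = 0.44), and fibre markers r = -0.39 (adjusted permutation p = 0.339). The part of cell composition in the slopes was not tested.

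The order of genes was next looked up in muscles outside the 12. CAC muscles of 2 and 4 weeks had Trim63 between 113 and 1029 TPM, and a fit on them called 1690 genes (15.2%), 1375 positive (12.4%) and 315 negative (2.84%), or 851 positive and 819 negative after rescaling. Of the 1375, 1083 (78.8%) were also positive in late CAC, and 183 of the 315 (58.1%) were also negative, which is 29.9% and 13.0% of the late calls. Of the genes positive in late CAC 93.0% had a positive r in the earlier muscles, where 67.1% of all genes did, and of those negative in late CAC 78.5% had a negative r. After rescaling the shares were 81.7% and 88.9%, where 50.2% of all genes had a positive r. These shares also rest on few muscles: without CAC replicates 2 and 4 at 4 weeks, 1 gene was called and the shares were 70.1% and 39.8%, where 61.5% of all genes had a positive r. Rescaling made these 59.7% and 59.3%, where 47.3% of all genes had a positive r, and 0 genes were called. Without replicate 2 alone 44 genes were called. In late Con muscles, where Trim63 ran over 91.1 to 198 TPM, limma called 0 genes with 2347 at an unadjusted p under 0.05, and in late NCAC 0 with 2693. Of the genes positive in late CAC 95.7% had a positive r in late Con and 98.2% in late NCAC, where 90.1% and 95% of all genes did. Of those negative in late CAC 16.7% and 5.84% had a negative r. After rescaling the shares were 64% and 61.4% in late Con, where 51.1% of all genes had a positive r. In late NCAC they were 58.2% and 61.8%, where 50.6% of all genes did. Slopes in late CAC and late Con differed for 0 genes by limma's interaction term, with 1687 at an unadjusted p under 0.05, of which 16 had the higher slope in late CAC and 1671 the lower, and with 372 after rescaling. A gene called in late CAC and not in late Con is therefore not shown to differ in slope.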

How the data were processed

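RNA of tibialis anterior muscle was sequenced with a stranded mRNA kit on an Illumina instrument, per the protocols in the labels. TPM for 47643 gene symbols in 62 libraries, in 1 table, are what the authors deposited, and each column has the same total. Per the submitters' processing notes the build was mm10. The aligner, quantifier, annotation and filters were not given in the sources used here. TPM carries no read number, so the depth is unknown. All columns were matched to samples by title, and 0 were left over. How reads of near-identical genes (calmodulins, class I genes, metallothioneins) were split is not given, so their values are uncertain.

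Values were taken as log2(TPM + 1), a scale that understates changes of low genes, and genes averaging 1 TPM or more were kept. Spread was tested with limma 3.58.1 (R 4.3.3), with a mean-variance trend, on absolute deviations from the mean of treatment and week times the square root of n/(n - 1), with 18 residual degrees of freedom. The variance ratio divides sums of squared deviations by 10 (CAC) and 8 (Con) degrees of freedom. Slopes on Trim63 had week means as covariates, with 9 residual degrees of freedom. Calls used a Benjamini-Hochberg adjusted p under 0.05 over all genes kept, and both fits were tested on simulated data. The simulated noise was normal, independent between genes and of the SD of late Con. Genes of late CAC muscles varied together, so the simulation does not show how the fits behave in such data. Permutation tests were run with numpy 2.4.6 and scipy 1.17.1 in Python 3.11.15, and plots with matplotlib 3.10.9. The F test treats values as normal. P-values measure the spread between libraries, which the protocol calls biological replicates.

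The muscles, gene lists, tests and alternatives were chosen with earlier results of these data known. The genes named are, under a mean of at least 5 TPM, the 10 called genes with the highest and the lowest variance ratio and the 10 with the highest and the lowest r, from every list the 4 or fewer called members lowest in adjusted p, and a fixed panel. The text prints part of them, and 1 gene of the spread ranking is not reported here. Alternatives were a pseudocount of 0.1, no filter, a mean of at least 10 TPM, division by median-of-ratios size factors, group medians, ranks, an F test, each week alone, a block for the replicate number, omission of each library, and the 2 muscles farthest from the Trim63 median left out. Leaving out the 3 CAC libraries highest on the first principal component, or the 3 with the scores largest in size, slopes on Trim63 within a week, and the settings of the 2 and 4 week fit were added after seeing the data. Same-numbered CAC and Con libraries had deviations correlated at r = -0.165 to 0.143, above 0.1 in 1 of 10 pairs, so numbers did not pair treatments.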

Additional observations from a re-analysis of the deposited data

Results flagged for a closer look

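In groups of 5 or 7 muscles, the highest or lowest muscle was compared with its nearest neighbour by Dixon's criterion for the deviation and for 18 genes. Of 78 groups tested 10 had a muscle apart, where chance alone flags about 1 in 20, and the 10 are not independent, since muscles recur. Some of the 18 genes, among them Ranbp9 and Lcn2, were named for their wide spread in these CAC muscles. The rate of 1 in 20 does not hold for genes picked in that way.

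CAC replicate 1 at 6 weeks stood apart in 4 measures, with a deviation of 0.455 (highest), Fkbp5 at 185 TPM (highest), Ranbp9 at 131 TPM (highest) and Casq1 at 246 TPM (lowest). CAC replicate 3 at 8 weeks was the lowest of its group in Mt2 at 32.3 TPM, in Lcn2 at 0.999 TPM (0.9995 before rounding) and in Fkbp5 at 8.46 TPM. It was also the muscle with the least Trim63 of the 12 and the most haemoglobin Hba-a1, at 3252 TPM. CAC replicate 1 at 8 weeks had the lowest Acta1, the main skeletal actin, at 11706 TPM. NCAC replicate 4 at 6 weeks had a deviation of 0.572, the highest of its group, and Con replicate 5 at 8 weeks the lowest Calm2 of its group, at 139 TPM.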

How the results depend on the processing

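Numbers of genes called depended strongly on the choice of libraries, whereas directions of named genes mostly did not. Apart from the panel, the named genes were picked for calls or extreme values in these muscles, so a kept direction adds no support. The deviation per library differed between late CAC and late Con by 0.111 and kept its side of 0.05 in all settings run but 3: it was 0.0689 at 6 weeks alone (exact permutation p = 0.0635), 0.0321 without the 3 libraries highest on the first component (exact permutation p = 0.221) and 0.0426 without the 3 at either end of it (exact permutation p = 0.135). Leaving out single libraries gave 0.0862 to 0.125. The count of genes differing in spread between late CAC and late Con was 554. It was 1435 with no filter, 266 with a mean of at least 10 TPM, 1059 after rescaling, 0 with group medians, 1 at 6 weeks alone, 1 at 8 weeks alone, 30 without the 3 highest, 38 without the 3 at either end and 0 to 1328 when single libraries were left out. The count for late NCAC against late Con, 5 in the fit as reported, was 557 with no filter, 1 with a mean of at least 10 TPM, 13 after rescaling, 0 with group medians, 2 at 6 weeks alone, 0 at 8 weeks alone, 20 by the F test and 4 to 16 with single libraries left out. The count of genes varying with Trim63, 5022, was 2601 with a mean of at least 10 TPM, 845 without the 2 muscles farthest from the Trim63 median, 270 without the 3 highest, 379 without the 3 at either end, 0 at 6 weeks alone and 3620 to 5239 with single libraries left out. Fewer genes were tested under the stricter filter and fewer muscles in each week; for the other settings the cause was not tested. The count of genes whose slope differed between late CAC and late Con was 0 in all other settings run and 0 to 1 with single libraries left out.

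With the replicate block, the deviation per library differed by 0.0998 (exact permutation p = 0.026), 529 genes differed in spread, and 6 varied with Trim63. In the Trim63 fit the block leaves few residual degrees of freedom, and CAC replicates 6 and 7, present at 8 weeks only, add nothing to a slope. Trim63 also had the same order among CAC replicates 1 to 5 at 6 and at 8 weeks, so the block takes up part of the differences in Trim63. Which of these lowered the count was not tested. Numbers did not pair CAC with Con muscles.

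Of 73 named genes called for their slope on Trim63, 54 kept the call without the 2 muscles, 40 without the 3 highest and 44 without the 3 at either end, while limma called 0 of them with the replicate block and 0 at 6 weeks alone. Some directions turned. Myh4 had a slope of -0.0185 after rescaling, -0.313 with the replicate block and -0.0163 at 8 weeks alone. Stat3 had -0.0409 with the replicate block. Socs3 had 0.0770 without the 2 muscles, 0.0582 without the 3 highest and -0.144 to 0.0368 with single CAC muscles left out, positive without CAC replicate 1 at 8 weeks. Acta1 had 0.0895 without the 3 highest. The difference in absolute deviation was 0.0139 for H2-Q6 at 8 weeks alone, against -0.553 as reported. For Mt2, at 0.616 as reported, it was -0.0132 to 0.752 with single libraries left out, negative without CAC replicate 3 at 8 weeks, and -0.136 without the 3 at either end.

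Read depth is not given, so the share of counting error in the spread of low genes is unknown, and the labels give no batch, body weight or tumour size to set beside a muscle.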

Other observations

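Of 28 genes of fatty acid oxidation and of fasting, 13 had a positive call and 1 a negative one, against 32.6% and 12.6% of all genes, with a median r of 0.619. After rescaling 8 were positive and 3 negative, without the 3 muscles highest on the first component 1 and 1, and the median r in CAC muscles of 2 and 4 weeks was -0.474. Pdk4, the kinase that shuts off pyruvate oxidation in fasting, had 1357, 941, 123, 744 and 608 TPM in CAC muscles at 6 weeks and 4201, 1148, 210, 403, 140, 2527 and 516 TPM at 8 weeks, against 234 to 703 TPM in late Con muscles. CAC muscles thus lay on both sides of the Con range, 6 above it and 3 below it (slope 0.78, limma adjusted p = 0.00036, r = 0.872, and 0.715 without the 2 muscles farthest from the Trim63 median). Of 18 circadian genes 6 had a positive call and 1 a negative one.

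Heat shock proteins gave 6 positive and 2 negative calls of 21, or 2 and 4 after rescaling, against 32.6% positive and 12.6% negative calls over all genes before rescaling. After it 2522 of all 11106 genes were positive and 2693 negative. Hsp90ab1, the constitutive chaperone of the cytosol, had 521 to 1628 TPM in late CAC and 403 to 656 TPM in late Con (r = 0.936), whereas Hspb2, a small heat shock protein of muscle, had 28.8 to 132 TPM in late CAC and 52.8 to 125 TPM in late Con (r = -0.935). Car3 had 205 to 3516 TPM in late CAC and 2292 to 4080 TPM in late Con (r = -0.835), with 11 of 12 CAC muscles below every Con muscle. Hepatocyte transcripts were called more spread in late CAC for 6 of 7 markers, at trace level: the sum was 2.96 to 12.3 TPM in late CAC and 0.814 to 2.05 TPM in late Con, with albumin (Alb) reaching 3.96 TPM in late CAC and 0.189 TPM in late Con. That sum had r = 0.118 with Trim63 (rho = 0.189, permutation p = 0.716 and 0.569, Benjamini-Hochberg adjusted p = 0.716 over 19 relations).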
